A study of Rattus norvegicus with 8 samples.

Results

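Annexins are cytosolic proteins that bind the acidic phospholipids of membranes when calcium is present. Each has a conserved core that docks on the membrane and a short or long N-terminal tail that differs between members and binds partner proteins, many of them of the S100 family. Annexins are known for roles in membrane repair, vesicle traffic, the recognition of dying cells and the damping of inflammation, and in the testis several have been described in somatic cells. The genes described here are Anxa1, Anxa2, Anxa3, Anxa4, Anxa5, Anxa6, Anxa7 and Anxa11, 8 of the 14217 genes that the array names through a probe set with a single symbol. Every probe set whose only symbol was one of these genes was taken, which gave 14 probe sets. The 8 genes had been picked with their signals on these same arrays in all 3 groups known, so their levels and differences are given as a description and no p-value is given for them.

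Total testis RNA from adult rats of the Sprague-Dawley stock was hybridised to 8 Affymetrix arrays. Animals of 2 groups had received 1 dose of Adjudin, 50 mg/kg body weight by gavage, and their testes were taken 8 h (2 arrays) or 4 d (3 arrays) later; testes of untreated rats were on the other 3 arrays. Adjudin is an antispermatogenic compound that loosens the junctions by which Sertoli cells hold germ cells, and the series title places the study in germ cell loss. Controls given vehicle only are not described. Since no label ties an array to 1 animal, errors and p-values measure only the spread between arrays, which may be technical. The values are signals scaled to a common trimmed mean of 500 on every array, and differences are differences of log2(scaled signal + 32), which understates the change of dim genes. A fold is the antilog of such a difference, so it includes the added 32 and is not the ratio of the printed signals. For Anxa3 at 4 d the fold was 2.35 and the ratio of mean signals 2.6. The scaled signal reached 100 on 51.6% to 58.8% of non-control probe sets at 8 h, 53.9% to 57.6% at 4 d and 53.1% to 59.0% in untreated testes, and the spermatid markers given at the end were bright on all arrays. A probe set had to reach 100 on at least 2 arrays to enter the fit, and 10 of the 14 annexin probe sets did. Each of the 8 genes was represented by its brightest probe set.

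The 8 genes lie on 8 different chromosomes of the rat (RefSeq, GRCr8), so none were neighbours. RefSeq held a window around the transcript start for 7 of them, all but Anxa6. The 250 bases before the start are shown for Anxa2, the gene with the largest difference at 4 d, for Anxa11, the gene with the smallest, and for Anxa1, the window with the lowest GC content. Capitals mark matches, on either strand, to the AP-1 motif TGANTCA, the GC box GGGCGG, the CCAAT box CCAAT and the TATA box TATAAA. The Anxa2 window lies at chr8:78986002-78986251 on the plus strand, just before the annotated gene.
Anxa2: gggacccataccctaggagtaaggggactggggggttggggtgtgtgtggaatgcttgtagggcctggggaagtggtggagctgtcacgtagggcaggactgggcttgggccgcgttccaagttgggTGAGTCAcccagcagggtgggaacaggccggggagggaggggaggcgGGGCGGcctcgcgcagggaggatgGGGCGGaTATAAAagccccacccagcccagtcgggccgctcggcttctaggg
The Anxa11 window lies at chr16:1419484-1419733 on the plus strand and reaches into the annotated gene, since its transcript starts inside the outer boundary.
Anxa11: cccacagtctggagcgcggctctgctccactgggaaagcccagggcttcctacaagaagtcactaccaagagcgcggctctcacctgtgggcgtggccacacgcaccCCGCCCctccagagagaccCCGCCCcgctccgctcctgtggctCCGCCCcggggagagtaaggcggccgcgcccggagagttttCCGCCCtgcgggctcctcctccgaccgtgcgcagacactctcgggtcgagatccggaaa
The Anxa1 window lies at chr1:227303733-227303982 on the minus strand, within the annotated gene at the start of a transcript that begins inside its outer boundary.
Anxa1: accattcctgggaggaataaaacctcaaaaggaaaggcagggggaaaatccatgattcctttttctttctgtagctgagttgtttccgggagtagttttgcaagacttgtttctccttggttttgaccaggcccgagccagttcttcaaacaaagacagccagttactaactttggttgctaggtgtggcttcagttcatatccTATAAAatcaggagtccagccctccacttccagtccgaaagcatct

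The windows, searched from 250 bases before to 50 bases after the start, shared no single motif. A GC box was present in 6 of the 7 windows, all but that of Anxa1, against 33.1% of 33465 rat windows of the same length. The TATA box was present in those of Anxa1 (46 bases before the start) and Anxa2 (45 bases before it), against 14.2% of all windows. Only the Anxa2 window held an AP-1 match, 123 bases before the start, against 7.33% of all windows. The CCAAT box was found in those of Anxa4 and Anxa7, against 37.5% of all windows, and a STAT palindrome, TTCNNNGAA, in 0 of the 7, against 8.87%. No matches overlapped. GC content over the 300 bases ran from 45.0% in Anxa1 to 68.0% in Anxa2 and Anxa11, with a median of 51.7% over all windows. A match describes these letters only, and no factor binding was measured.

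At 4 d after Adjudin all 8 annexin genes had a higher signal than in untreated testis, on every array. The log2 differences ran from 0.58 for Anxa11 to 1.60 for Anxa2, with a median of 0.99, against a median of 0.031 over all 11241 genes tested. All 8 passed the threshold of an adjusted p below 0.05 in limma, where 7.63% of genes (6.16% of probe sets) were called higher, and in all 8 the 3 arrays at 4 d lay above the 3 untreated ones, as they did for 19.7% of genes. These genes were picked on this contrast, so nothing is read from the counts. The number past the threshold was 5 after equalising the medians of the arrays, where 3.76% of probe sets were called higher. It was 5 without untreated replicate 1 or 4 d replicate 3 and 4 without 4 d replicate 1 or 2, where 2.98% to 4.31% of probe sets were called higher.

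**Figure D1:**
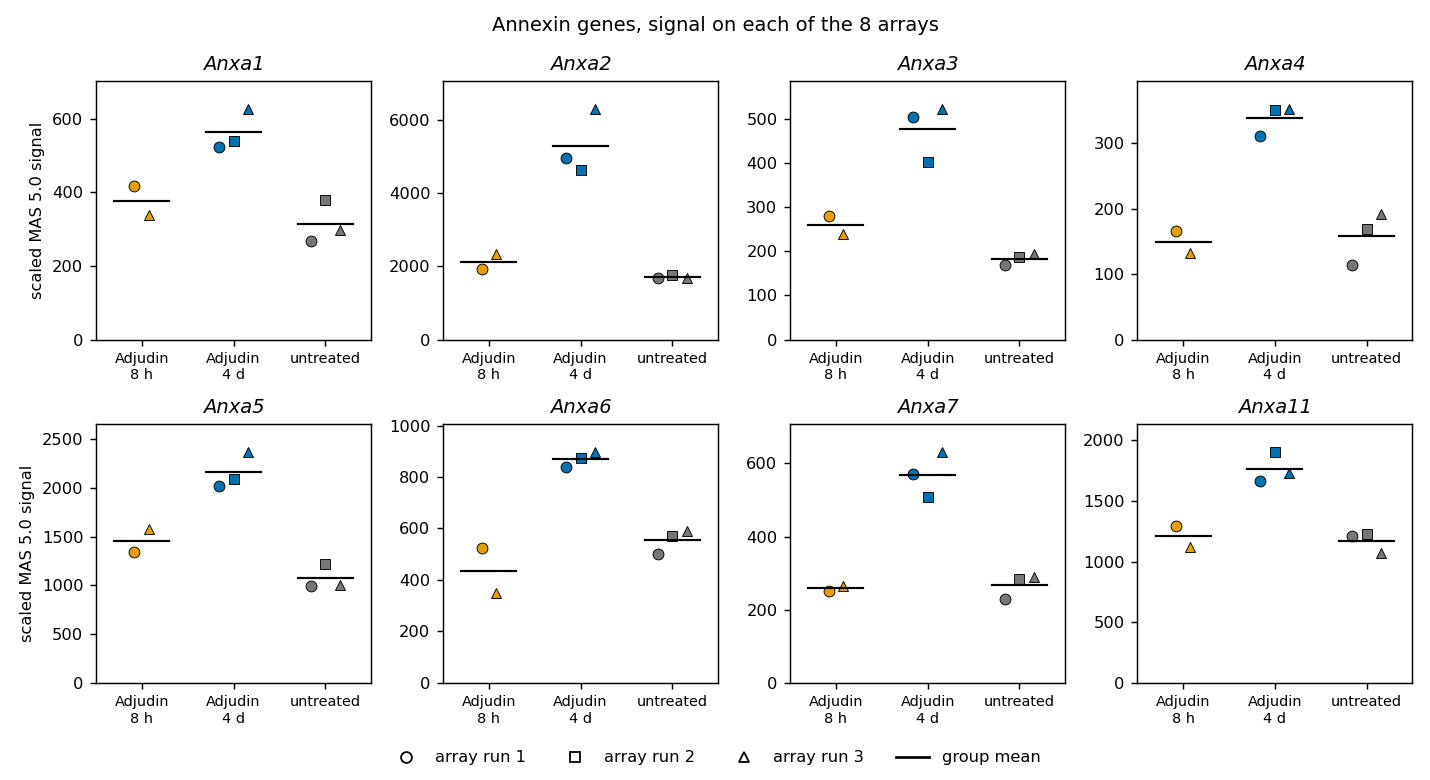
Scaled MAS 5.0 signal (linear axis from 0) of the 8 annexin genes on each array, with Adjudin 8 h, Adjudin 4 d and untreated arrays from left to right. Points are arrays, their shape gives the run in which arrays were hybridised together, and lines are group means. In every panel the 3 arrays at 4 d lie above the 3 untreated arrays.

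Anxa1 and Anxa2 are the members whose tails bind S100 proteins in the best-known annexin complexes. Anxa2 (probe set 1367584_at), which with S100a10 forms a surface receptor for plasminogen and its activator, had signals of 4956, 4625 and 6300 at 4 d, against 1684, 1762 and 1682 in untreated testes. The untreated arrays lay within a narrow band, and the lowest array at 4 d was far above it. The mean was 5293 ± 886.9 at 4 d and 1709 ± 45.3 in untreated testes (SD, n = 3 each), a log2 difference of 1.60 (SE 0.14) or 3.03-fold. Within the 3 runs of arrays hybridised together, the difference was 1.54, 1.38 and 1.89.

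Anxa1 (probe set 1367614_at), a glucocorticoid-induced protein that limits inflammation through formyl peptide receptors, had signals of 522.6, 540.8 and 627.8 at 4 d, against 267.5, 379.9 and 296.7 in untreated testes. The highest untreated array was replicate 2, and it still lay below all arrays at 4 d. The log2 difference was 0.79 (SE 0.17), or 1.73-fold. It was 0.89, 0.48 and 1.01 in runs 1, 2 and 3, smallest in the run that held that untreated array.

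Anxa5, Anxa3, Anxa4 and Anxa6 are members known chiefly for binding to phospholipid surfaces. Anxa5 (probe set 1386862_at) binds the phosphatidylserine that dying cells expose and can inhibit blood clotting. Its signals were 2021, 2089 and 2369 at 4 d, against 992.8, 1219 and 1002 in untreated testes, a log2 difference of 0.99 (SE 0.14) or 1.99-fold. The lowest array at 4 d lay well above the highest untreated one, and the difference was 1.00, 0.76 and 1.22 in the 3 runs.

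Anxa3 (probe set 1367974_at), described as an inhibitor of phospholipase A2 and of clotting in test tube assays, had signals of 504.2, 402.1 and 523.8 at 4 d, against 168.5, 186.3 and 194.5 in untreated testes. It had the second largest difference of the family, log2 1.24 (SE 0.17) or 2.35-fold, with 1.42, 0.99 and 1.30 in the 3 runs. Anxa4 (probe set 1389305_at), found in many epithelia, where it binds apical membranes, had 311.9, 350.3 and 352.9 at 4 d, against 113.6, 169.3 and 192.5 in untreated testes. The untreated arrays of Anxa4 were the most scattered relative to their mean (158.5 ± 40.6, SD, n = 3), yet none came near the lowest array at 4 d, and the log2 difference was 0.98 (SE 0.21) or 1.97-fold.

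Anxa6 (probe set 1387673_a_at), the longest annexin, with a duplicated core, had signals of 838.9, 872.9 and 897.3 at 4 d, against 501.8, 570.8 and 589.7 in untreated testes. The arrays at 4 d agreed closely with each other (869.7 ± 29.3, SD, n = 3), and the log2 difference of 0.62 (SE 0.17), or 1.54-fold, was among the smaller ones. In the 3 runs it was 0.71, 0.59 and 0.58.

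Anxa7 and Anxa11 carry long tails rich in glycine, tyrosine and proline. Anxa7 (probe set 1368143_at), also known as synexin, promotes the fusion of secretory granules, and its signals were 569.8, 507.4 and 631.4 at 4 d, against 230.3, 284.3 and 289.5 in untreated testes. Its log2 difference was 1.00 (SE 0.16), or 2.01-fold. Anxa11 (probe set 1388445_at), which tethers RNA granules to lysosomes and binds the calcium sensor Pdcd6, had 1668, 1904 and 1730 at 4 d, against 1214, 1231 and 1074 in untreated testes. Its difference was the smallest of the 8, log2 0.58 (SE 0.13) or 1.49-fold, with 0.45, 0.62 and 0.67 in the 3 runs, and the groups did not overlap. RefSeq lists 4 pseudogenes named for Anxa7 and 1 for Anxa2, and whether their transcripts add to these signals was not tested.

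**Figure D2:**
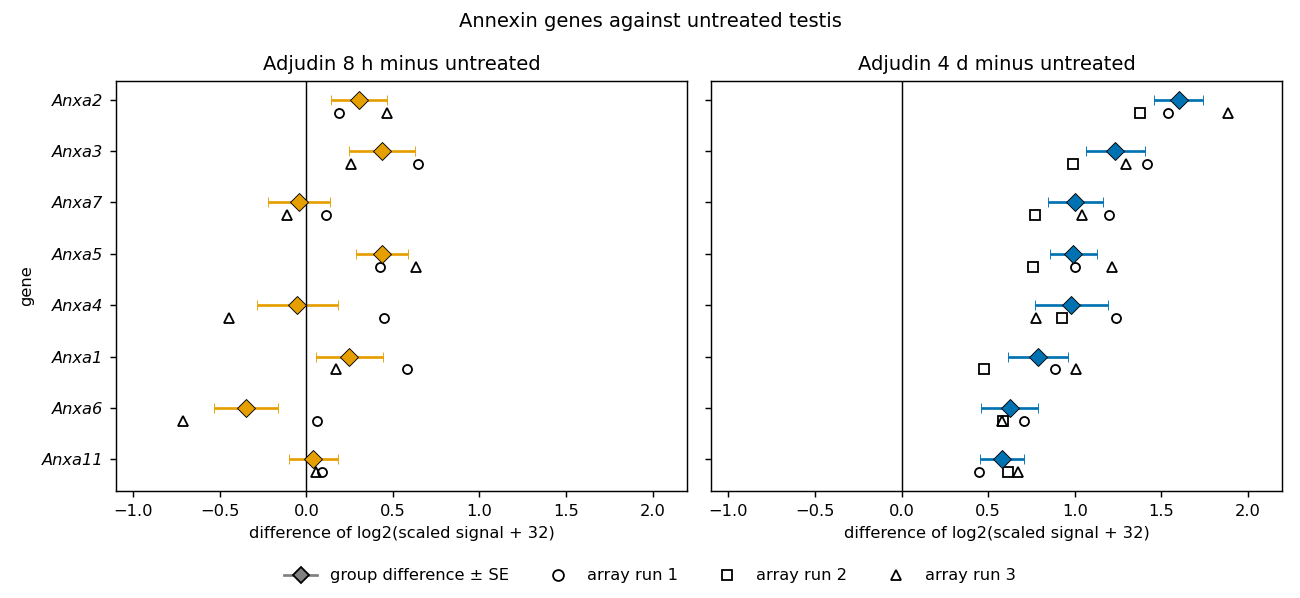
Differences of log2(scaled signal + 32) from untreated testis for each annexin gene (rows), at 8 h (left) and 4 d (right). Diamonds with bars are group differences ± SE from limma, and open symbols below them are the differences within single array runs. At 4 d every symbol lies above 0, between 0.45 and 1.89, while at 8 h the genes lie between -0.35 and 0.44 and 3 genes have runs on both sides of 0.

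At 8 h the annexin signals lay on both sides of those in untreated testis. The log2 differences ran from -0.35 for Anxa6 to 0.44 for Anxa3, with a median of 0.14 against -0.012 over all genes tested. In limma 0 of 8 passed at an adjusted p below 0.05, where 0.0801% of genes (0.0657% of probe sets) were called higher, and 2 of 8 had an unadjusted p below 0.05, against 4.06% of all genes. For 3 of the 8, Anxa2, Anxa3 and Anxa5, both arrays at 8 h lay above all untreated arrays, as they did for 7.92% of genes. Since the genes were picked with their 8 h signals known, nothing is read from these counts either.

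Anxa5 had 1345 and 1573 at 8 h, both above the highest untreated array of 1219, with a log2 difference of 0.44 (SE 0.15). Anxa3 had 281.3 and 238.9 at 8 h, against an untreated maximum of 194.5 (log2 0.44, SE 0.19). Anxa2 had 1921 and 2330, against an untreated maximum of 1762 (log2 0.30, SE 0.16). For these genes both runs with an array at 8 h gave a positive difference: 0.43 and 0.63 for Anxa5, 0.64 and 0.26 for Anxa3, and 0.19 and 0.46 for Anxa2.

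Anxa1 had 416.8 and 338.2 at 8 h, and the lower of these fell below untreated replicate 2 (log2 0.25, SE 0.19). Anxa7 had 251.9 and 265.1 (log2 -0.04, SE 0.18) and Anxa11 had 1295 and 1119 (log2 0.04, SE 0.14), both within or close to the untreated range. Anxa4 had 166.5 and 132.5 (log2 -0.05, SE 0.23), with run differences of 0.45 and -0.45 that cancelled. Anxa6 had 525.4 and 347.2, of which the second, 8 h replicate 2, lay below all untreated arrays, and its log2 difference of -0.35 (SE 0.19) was -0.07 without that array and -0.63 without 8 h replicate 1.

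Between the times, all arrays at 4 d lay above both arrays at 8 h for all 8 genes, as they did for 23.6% of genes. The log2 differences of 4 d against 8 h ran from 0.54 for Anxa11 and Anxa1 to 1.30 for Anxa2, with a median of 0.88 against 0.051 over all genes. Of the 8, 5 passed the threshold (Anxa2, Anxa3, Anxa4, Anxa6 and Anxa7), where 4.46% of genes (3.58% of probe sets) were called higher, and nothing is read from that count because the genes were picked with these values known. With the array run as a block 7 passed, where 8.57% of all probe sets were called higher, and with the replicate number as a block 7, where 7.54% were. Equalising medians left 1, where 1.43% of probe sets were called higher, and using no signal minimum left 3, where 1.70% were. Leaving out 1 array also lowered the share of probe sets called higher, to between 0.884% and 2.80% in the cases that follow. The count was 3 without untreated replicate 2, 2 without 8 h replicate 1, 1 without 8 h replicate 2, 2 without 4 d replicate 1 and 3 without 4 d replicate 2 or 3.

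Genes with more than 1 probe set did not give the same picture with each. The remaining probe sets were dim, and 4 of them did not reach the signal minimum on 2 arrays. The second Anxa2 probe set, 1392250_at, had signals of 27.4, 48.6 and 16.0 at 4 d, against 64.8, 65.0 and 40.4 in untreated testes, all under 100. The second Anxa7 probe set, 1368142_at, had 135.8, 90.8 and 77.2 at 4 d, against 24.6, 60.4 and 60.2, so its groups did not overlap either (log2 0.74).

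Anxa3 had 3 further probe sets, and none of them showed the difference seen with 1367974_at. Probe set 1395313_s_at, whose suffix marks probes shared by several transcripts, had 193.3, 153.5 and 110.6 at 4 d, against 226.9, 168.9 and 88.6 in untreated testes (log2 -0.03, SE 0.41). Its signal followed the run rather than the group, being highest in run 1 and lowest in run 3 in every group that had both. The other 2 were below 100 on all or all but 1 of the 8 arrays. With the mean of the tested probe sets in place of the brightest, the 4 d difference of Anxa3 was 0.61 instead of 1.24.

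The second Anxa4 probe set, 1368908_at, had 57.0 and 76.4 at 8 h, below all untreated arrays, and 169.7, 188.5 and 128.8 at 4 d, above all of them (114.2, 92.0 and 107.2). Its log2 difference was -0.47 (SE 0.26) at 8 h and 0.50 (SE 0.23) at 4 d, and it did not pass at either time. The brighter Anxa4 probe set gave the same order at 4 d but overlapped the untreated range at 8 h.

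**Figure D3:**
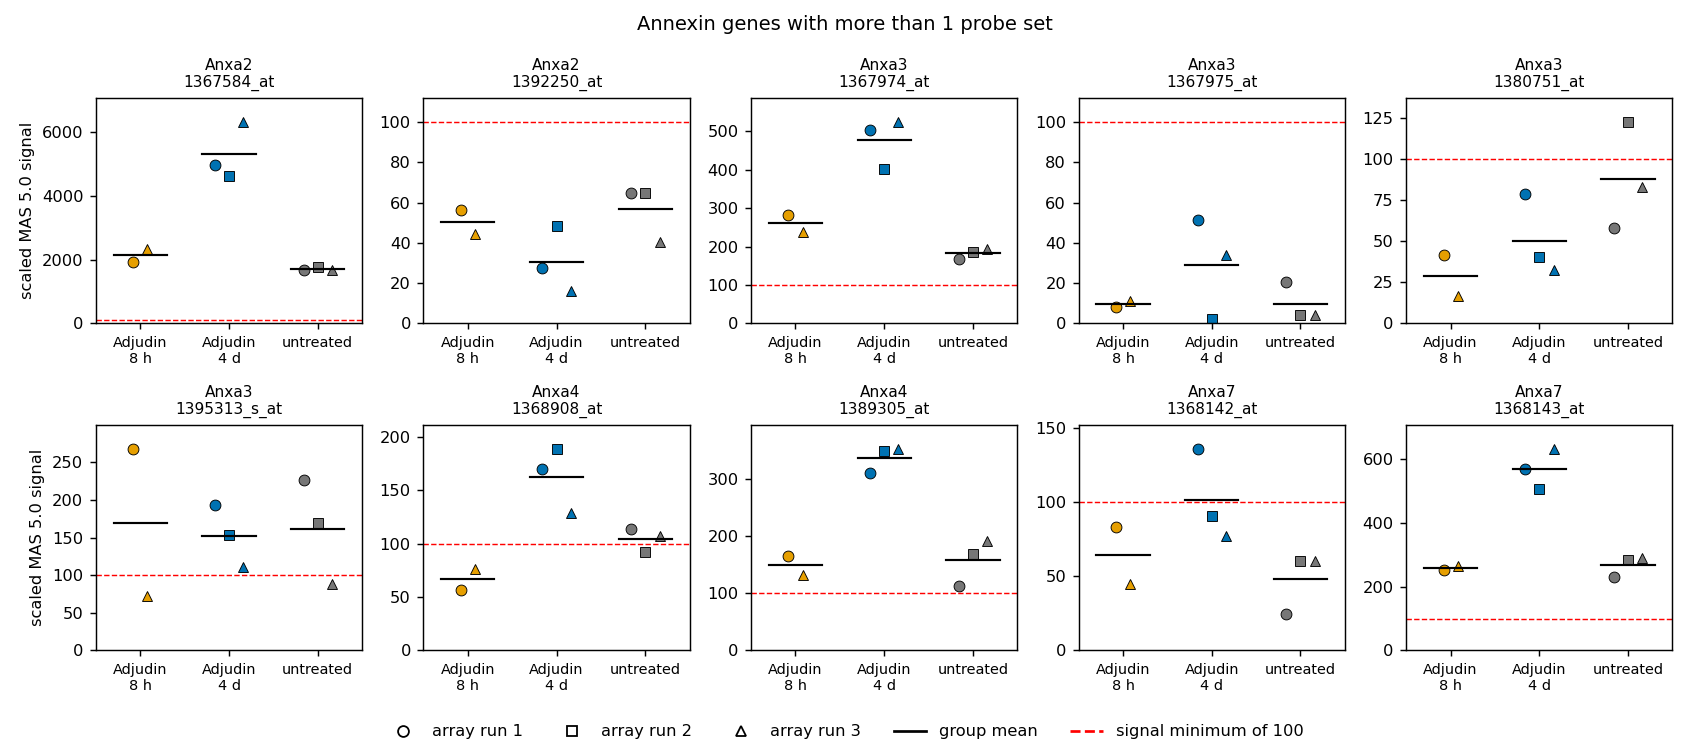
Scaled MAS 5.0 signal (linear axis from 0) on each array for the 10 probe sets of Anxa2, Anxa3, Anxa4 and Anxa7, the genes with more than 1, with groups from left to right as Adjudin 8 h, Adjudin 4 d and untreated. The dashed line is the signal minimum of 100, points are arrays shaped by run, and lines are group means. The arrays at 4 d stand above the untreated ones in both probe sets of Anxa4 and Anxa7 but in only 1 of 2 for Anxa2 and 1 of 4 for Anxa3.

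Of the annexin genes outside these 8, only Anxa8 could be fitted. Its signals were 106.6, 96.2 and 35.2 at 4 d, against 113.0, 145.5 and 100.4 in untreated testes, a log2 difference of -0.50 (SE 0.34) that did not pass in limma (adjusted p = 0.432). The 2 probe sets of Anxa9 stayed below 100 on all 8 arrays, and Anxa10 and Anxa13 had no probe set with a single symbol.

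The genes called partner genes here came from 7 lists of 50 symbols, of which 35 could be tested. Besides S100 and EF-hand proteins that bind annexin tails, the lists held other annexins, the glucocorticoid axis and phospholipases A2. They also held genes of plasminogen activation, of membrane repair and actin linkage, and of other lipid-binding proteins. The lists were chosen with earlier results of these data known. Their counts and p-values, here and below, are therefore a description and not independent support. At 4 d 11 of the 35 rose and 0 fell in limma, where 7.63% of all genes were called higher and 5.19% lower, and the median log2 difference of the 35 was 0.33. When the array run entered as a block the counts were 15 up and 2 down, and the shares of all probe sets called grew with it, to 13.3% higher and 9.19% lower, against 6.16% and 3.73% without the block. At 8 h 0 of 35 passed in limma, where 0.0801% of all genes were called higher. Of the 35, 4 (11.4%) had an unadjusted p below 0.05, against 4.06% of all genes. With the array run as a block 1, Plat, passed, where 0.268% of probe sets were called higher. The genes with the smallest p of their lists at 8 h had log2 differences of 1.21 (Plat), 0.85 (S100a10), 0.85 (Dusp1, a glucocorticoid-induced phosphatase), 0.37 (Pla2g4a), -0.28 (Anxa8), -0.52 (Syt11) and -0.67 (Capn1), and none of these passed.

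S100 and other EF-hand proteins bind annexin tails. Of 7 tested, 5 rose and 0 fell at 4 d, where 7.63% of all genes were called higher and 5.19% lower. Their median log2 difference was 0.97, against 0.031 over all genes. S100a11, the partner of annexin A1, had 1618, 1713 and 2275 at 4 d, against 184.1, 265.7 and 294.7 in untreated testes (log2 2.77, SE 0.20, adjusted p = 8.08e-05 in limma). At 8 h its signals of 197.5 and 219.5 were within the untreated range. S100a10, the partner of annexin A2, had 2181, 1851 and 1606 at 4 d, against 442.2, 435.4 and 597.7 in untreated testes (log2 1.87, SE 0.18, adjusted p = 0.000338 in limma).

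At 8 h S100a10 already had 795.1 and 1020, both above the untreated arrays, although the log2 difference of 0.85 did not pass (adjusted p = 0.366 in limma). S100a4, a calcium sensor of motile cells, had 271.3, 188.5 and 512.8 at 4 d, against 9.4, 9.0 and 76.0 in untreated testes (log2 2.55, SE 0.54, adjusted p = 0.0168 in limma). Its untreated arrays were all below 100, and the log2 difference was 3.39 with the smaller and 1.47 with the larger added constant tried. The call was lost without untreated replicate 1 or 2 or 4 d replicate 1 or 3 (adjusted p = 0.0579 to 0.0706). S100b (log2 0.97, SE 0.19, adjusted p = 0.0119 in limma, but 0.0782 after equalising medians) and S100a6 (log2 0.96, SE 0.19, adjusted p = 0.0107) also rose.

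Pdcd6 and Sri, whose products are calcium sensors that bind long-tailed annexins, did not pass without a block. Pdcd6, a partner of Anxa11, had a log2 difference of 0.30 at 4 d (adjusted p = 0.170 in limma, or 0.0397 with the array run as a block). Sri, which encodes sorcin, the partner of Anxa7, had 2501, 3280 and 2085 at 4 d, against 3638, 3678 and 4358 in untreated testes, a log2 difference of -0.58 (adjusted p = 0.0550, or 0.0121 with the array run as a block). Sri thus lay lower at 4 d on all arrays while Anxa7 lay higher.

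Of 9 tested genes of membrane repair and actin linkage, 3 rose and 0 fell at 4 d, where 7.63% of all genes were called higher and 5.19% lower. With the array run as a block 5 rose and 0 fell, where 13.3% of all probe sets were called higher and 9.19% lower. Myof, encoding myoferlin, a membrane repair protein, had 589.4, 583.0 and 346.1 at 4 d, against 74.0, 53.0 and 59.4 in untreated testes (log2 2.49, SE 0.30, adjusted p = 0.00103 in limma). Its untreated values were below 100, and the log2 difference was 2.85 and 1.71 with those constants. The membrane-to-actin linkers Ezr and Msn, encoding ezrin and moesin, rose by a log2 of 1.46 (SE 0.17, adjusted p = 0.000893) and 1.11 (SE 0.23, adjusted p = 0.0151). The call on Msn was lost with the mean of its probe sets (0.0924) and without 4 d replicate 1 (0.0725) or 2 (0.0592).

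Of 4 phospholipase A2 genes, the enzymes once thought to be the target of annexins, Pla2g5 rose (log2 1.14, SE 0.21, adjusted p = 0.00902 in limma) and 0 fell. Over all genes, 7.63% were called higher at 4 d and 5.19% lower, or 13.3% and 9.19% of all probe sets with the array run as a block. With the array run as a block Pla2g4a also rose (log2 0.61, adjusted p = 0.0203) and Pla2g6 fell by 0.32 on the log2 scale (adjusted p = 0.0107). Of 3 genes of plasminogen activation, Plat, encoding the tissue-type activator that binds the annexin A2 complex, rose. Plat had 332.1 and 351.2 at 8 h and 407.9, 488.0 and 355.7 at 4 d, against 113.6, 152.1 and 125.3 in untreated testes (log2 1.47 at 4 d, SE 0.18, adjusted p = 0.00116 in limma). At 8 h its log2 difference of 1.21 did not pass (adjusted p = 0.112), but it did with the array run as a block (log2 1.31, adjusted p = 0.0144).

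Of 5 other lipid-binding genes, Mfge8 rose at 4 d, where 7.63% of all genes were called higher. Its product, like Anxa5, binds exposed phosphatidylserine. Mfge8 had 2079, 2346 and 2003 at 4 d, against 1116, 1333 and 969.6 in untreated testes (log2 0.90, SE 0.15, adjusted p = 0.00542 in limma). Of 6 genes of the glucocorticoid axis, 0 rose and 0 fell at 4 d in limma. Their median log2 difference was 0.33, and 2 of 6 (33.3%) had an unadjusted p below 0.05, near the 27.4% of all genes. The smallest p belonged to Tsc22d3, a glucocorticoid-induced regulator (log2 0.46, SE 0.17, adjusted p = 0.134). Its 4 d against 8 h difference was 0.68 (adjusted p = 0.0687 in limma), or 0.70 with the array run as a block (adjusted p = 0.0254). The receptor genes Fpr1 and Fpr2 had no probe set with a single symbol.

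**Figure D4:**
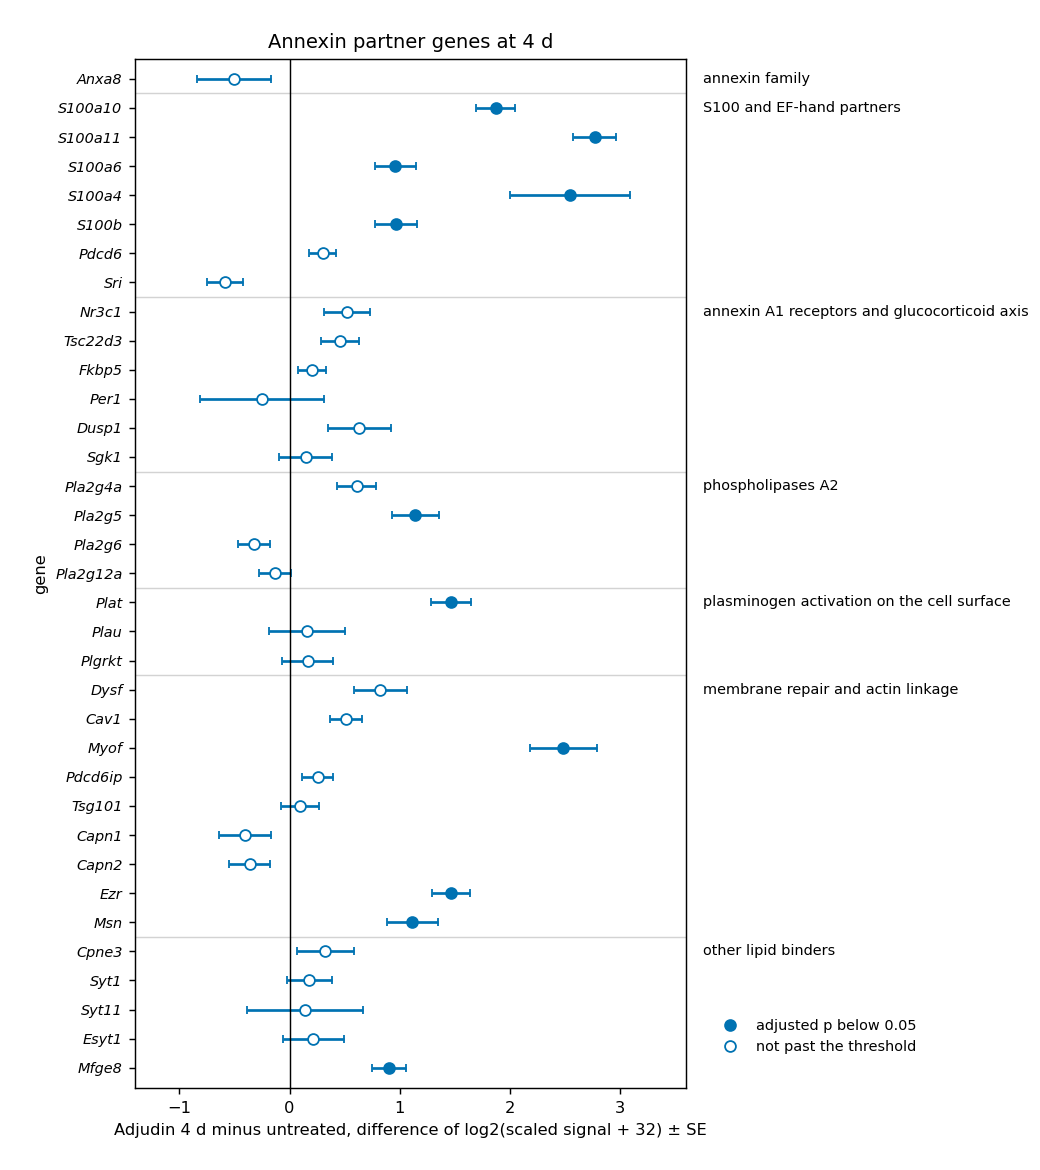
Difference of log2(scaled signal + 32) between Adjudin 4 d and untreated testis for the 35 tested partner genes (rows, grouped by list), as points ± SE from limma. Filled points are the 11 genes with an adjusted p below 0.05, all to the right of 0, and the largest values are those of S100a11, S100a4 and Myof.

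Several of these genes differed between the times themselves. At 4 d against 8 h, 7 of the 35 partner genes were higher and 0 lower in limma, where 4.46% and 3.58% of all genes were called. When the array run entered as a block, 13 passed upward and 2 downward, where 8.57% of all probe sets were called higher and 7.09% lower, against 3.58% and 2.47% without the block. S100a11 (log2 2.97, adjusted p = 0.000207), Myof (2.21, adjusted p = 0.00608), Ezr (1.30, adjusted p = 0.00544) and S100a10 (1.02, adjusted p = 0.0165) were among them. Plat was not (log2 0.26, adjusted p = 0.597). The block added S100a4, S100a6, Msn, Dysf, Nr3c1 and Tsc22d3 to those called higher, and Sri and Pla2g6 as lower. The count was 3 after equalising medians, where 1.43% of all probe sets were called higher and 1.22% lower. It was 4 without 4 d replicate 1, where 1.35% were called higher and 0.789% lower.

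The genes whose log2 signal followed each annexin most closely over the 8 arrays were found by Pearson's r among the other 11233 genes. These values describe 8 arrays in 3 groups that differ at 4 d, so the points share that group difference. Anxa2 was most like Rab7a (r = 0.998), a small GTPase of late endosomes, Rapgef2 (0.994) and Ctsb (0.994), a lysosomal protease. Anxa7 was most like Unc93b1 (0.997), a chaperone of endosomal receptors, Dynlrb1 (0.996), a dynein subunit, and S100a11 (0.993). Anxa11 was most like Map4k4 (0.997), a kinase, Mfge8 (0.988) and Tgfb3 (0.986).

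Anxa1 was most like Pold4 (0.981), Nrros (0.979) and Cd68 (0.978), of which Nrros and Cd68 are known from macrophages. Anxa5 was most like Cers2 (0.988), a ceramide synthase, Serpinb6a (0.988), a protease inhibitor, and Slc11a2 (0.984), an iron transporter. Anxa3 was most like Akr1b1 (0.993), aldose reductase, Lamc1 (0.985), a laminin chain, and Clta (0.984), a clathrin light chain. Anxa4 was most like Thnsl2 (0.985), Ctla2a (0.980) and Hccs (0.979), and Anxa6 like Niban2 (0.979), Tril (0.973) and Dhh (0.972), a Sertoli cell ligand.

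Markers of cell types went different ways at 4 d in this whole tissue. Some rose, some of the spermatid markers fell while others did not pass, and several lists had no calls. All marker calls are from the fit without a block. Fewer cells of a type and less RNA per cell cannot be told apart in such samples. The summed signal of 11 tested macrophage markers, of which 6 rose, was 3886 to 4216 at 8 h, 7524 to 8664 at 4 d and 3480 to 3976 in untreated testes. Lyz2 and Mrc1 made up most of these sums. Over all genes, 7.63% were called higher and 5.19% lower at 4 d. Cd68, a macrophage lysosome protein, rose by a log2 of 1.26 and Lyz2 by 1.81. The 5 that did not pass were C1qb (log2 1.69), Ptprc (1.24), Tyrobp (0.76), Mrc1 (0.41) and Cd14 (0.09). Of these only Cd14 overlapped the untreated arrays at 4 d. The 7 Sertoli cell markers, of which 1 rose (Cldn11, log2 0.76), summed to 25840 to 28800 at 8 h, 33030 to 43580 at 4 d and 22900 to 26990 in untreated testes, and Clu and Cldn11 made up most of these sums. Of the 6 that did not pass, Clu (log2 0.51), Dhh (0.62) and Gata4 (0.30) lay above all untreated arrays at 4 d, Wt1 (0.25) and Inha (0.37) overlapped them, and Inhbb (-0.49) lay below all of them.

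The 6 Leydig cell markers, of which 0 passed, overlapped between 4 d (14300 to 23920) and untreated testes (11740 to 16280), as did the 5 peritubular ones (2524 to 3095 and 2990 to 3330). The 4 tested endothelial markers, of which 0 passed, summed to 978.6 to 1025 at 4 d and 640.9 to 737.1 in untreated testes. Both red cell genes tested, Hbb and Alas2, rose, with sums of 6396 to 11220 at 4 d and 3018 to 4968 in untreated testes. The 4 round spermatid markers, of which 3 fell, summed to 20000 to 21840 at 4 d and 30230 to 36010 in untreated testes. Of the 8 elongated spermatid markers 3 fell, with sums of 123900 to 180900 at 4 d and 174500 to 271000 in untreated testes that overlapped. The 3 spermatocyte and 4 spermatogonium markers had 0 calls and overlapping sums.

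The 4 neutrophil markers on the array (S100a8, S100a9, Mmp8 and Camp) were near background, with no single signal above 49.4 on any array. Of 6 markers of epididymis and mesothelium on the array, only Krt8 reached the signal minimum on 2 arrays, and no signal of the 6 exceeded 125.2. The part of macrophage, Sertoli and germ cell numbers in the annexin differences was not tested.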

How the data were processed

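The authors deposited 1 MAS 5.0 signal intensity for each probe set and array, not log-transformed; per the series' design text, MAS 5.0 and GeneSpring 7.2 were used. The scaling target is not given in the sources used here, and every array had a 2% trimmed mean of 250.1. Each array was scaled to a trimmed mean of 500, and log2(signal + 32) was taken. Of 31042 non-control probe sets, 19785 reached a signal of 100 on 2 or more arrays and were fitted together on all 8 arrays in R 4.3.3 by the lmFit and eBayes functions of limma 3.58.1 with an intensity trend, without a block, and p-values were adjusted by Benjamini-Hochberg at 0.05. Groups came from the sample titles. Gene names came from the platform annotation and only for the 20826 probe sets with 1 symbol (436 had several and 9780 none), and 0 symbols changed through RefSeq. The fit was also run on simulated data in which arrays varied independently and had no run effect. That test therefore does not cover the effect of the array run.

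The annexin genes and all lists were chosen with earlier results of these data known. All 8 annexins were named, with up to 4 genes of each partner list that passed with the largest differences at 4 d or at 8 h, or else the one with the smallest p, and the 3 genes most like each annexin. The other partner genes named (S100a6, Pdcd6, Sri, Pla2g6, Dysf, Nr3c1 and Anxa9) and the single cell markers were named after their values were seen. The array settings files showed 3 hybridisation days: run 1 held replicate 1 of each group, run 2 held untreated and 4 d replicate 2 under fluidics protocol version 4 (version 5 in the others), and run 3 held untreated 3, 8 h 2 and 4 d 3. Between groups, arrays that shared a run had deviations from their group means that correlated at 0.353 to 0.507. The other pairs correlated at -0.476 to 0.246, so the run pairs the arrays. The main fit does not use that pairing. Counts with the run as a block are given for the annexins and the partner genes, with values for some partner genes whose call changed. The cell type markers are given without it. Alternatives were quantile and median scaling, pseudocounts of 8 and 128, no minimum or one of 200, the mean of probe sets, no trend, only the 2 groups compared, both blocks and leaving out each array. The number of arrays limits the precision.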

Additional observations from a re-analysis of the deposited data

Results flagged for a closer look

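The 2 times after Adjudin differed for 7 partner genes, by the limma contrast of 4 d against 8 h with Benjamini-Hochberg adjustment over all probe sets. The log2 differences were 2.97 for S100a11 (adjusted p = 0.000207), 2.21 for Myof (adjusted p = 0.00608), 1.30 for Ezr (adjusted p = 0.00544), 1.13 for S100b (adjusted p = 0.0151), 1.02 for S100a10 (adjusted p = 0.0165), 1.02 for Pla2g5 (adjusted p = 0.0359) and 0.85 for Mfge8 (adjusted p = 0.0183). For each of them all 3 arrays at 4 d lay above both arrays at 8 h, as they did for 23.6% of all genes. The 7 genes were picked by passing this contrast, so that separation adds no support.

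For 1 annexin and 1 partner probe set the arrays lay on opposite sides of the untreated range at the 2 times. The share of all probe sets with this pattern was not computed, so nothing is read from that count. Anxa4 probe set 1368908_at lay below all untreated arrays at 8 h and above all of them at 4 d, with a log2 difference of 0.50 at 4 d and signals of 57.0 to 188.5, near the minimum used. Its 4 d against 8 h difference was 0.97 (SE 0.26) and was not past the threshold. Tsc22d3 had 320.3 and 296.1 at 8 h and 466.2, 534.0 and 538.2 at 4 d, against 454.2, 328.5 and 322.1 in untreated testes, with a log2 difference of 0.46 at 4 d. Its 4 d against 8 h difference of 0.68 did not pass (adjusted p = 0.0687 in limma) but did with the array run as a block (0.70, adjusted p = 0.0254).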

How the results depend on the processing

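Under all 19 alternatives the 4 d differences of the 8 annexins stayed above 0, while at 8 h Anxa4, Anxa7 and Anxa11 changed sign under some of them. The number of annexins past the threshold at 4 d was 5 after median scaling and 4 to 8 when 1 array was left out (5 without untreated 1 or 4 d 3, 4 without 4 d 1 or 4 d 2); at 8 h it was 0 throughout. For 4 d against 8 h it was 1 after median scaling, 3 with no signal minimum and 1 to 6 when 1 array was left out (3 without untreated 2, 2 without 8 h 1, 1 without 8 h 2, 2 without 4 d 1, 3 without 4 d 2 or 4 d 3). The partner genes past the threshold at 4 d numbered 17 with the array run as a block and 9 to 12 when 1 array was left out, and at 8 h 1 with that block. For 4 d against 8 h they numbered 3 after median scaling, 14 with the replicate number of the titles as a block (arrays of the same number in different groups had deviations correlated at -0.246 to 0.507), 15 with the array run as a block and 2 to 10 when 1 array was left out (3 without 8 h 1, 2 without 8 h 2, 4 without 4 d 1). The shares of all probe sets called moved with these settings too, to 13.3% higher and 9.19% lower at 4 d with the array run as a block, against 6.16% and 3.73%. For 4 d against 8 h the shares were 1.43% higher and 1.22% lower after median scaling, against 3.58% and 2.47%. Without 4 d 1 these shares were 1.35% and 0.789%, and with the array run as a block 8.57% and 7.09%. Neither block changed the count of annexins past the threshold at 4 d or 8 h. Leaving out an 8 h array leaves a lone array that is assumed to vary like the other groups. Median scaling moved the median log2 difference of all probe sets at 4 d against 8 h to -0.052, against 0.059. At 8 h, leaving out 1 array gave log2 differences of -0.599 to 0.033 for Anxa8 and -1.702 to 0.659 for Syt11, both positive only without 8 h replicate 2, against -0.28 and -0.52 with all arrays. The cause of these changes was not tested. Dim probe sets, and the 2 arrays at 8 h, limit what could be resolved.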
